A study of Mus musculus with 24 samples.

Results

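Chemokines and chemokine receptors were read on a focused array of glycan-related genes in the retinas of mice that lose their rods slowly. The group holds every probe set whose transcript identifier belongs to a gene named Ccl, Cxcl, Xcl, Cx3cl, Ccr or Cxcr with a number, together with Xcr1, Pf4 and Ppbp; the fractalkine receptor Cx3cr1 is outside it. It has 53 of the 1246 probe sets and 48 of the 909 named genes, with 33 probe sets for 30 chemokines and 20 probe sets for 18 receptors. Ccl27a had 3 probe sets, and Cxcl12, Ccr9 and Cxcr2 had 2 each.

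The RP mutant mice carried the P347S rhodopsin mutation as a transgene, and the normal mice were P347S-negative. Retinas were taken monthly from 1 to 4 months, with 3 arrays for each genotype and age and 24 in all. The submitters' design text places the first loss of rods around the youngest of these ages and advanced loss at the oldest. The promoter of the transgene, the strain and the sex of the mice are not given in the sources used here. Whether the 3 arrays of a group stand for different animals is not given in the sources used here, so p-values measure only how these samples spread, which may be technical.

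Chemokines are small secreted proteins that direct the movement of leukocytes and of some neural cells through receptors coupled to G proteins. Many are held on heparan sulfate chains at cell surfaces, and several receptors need sulfated tyrosines to bind them well. In the retina fractalkine is known as a signal from neurons to microglia, Ccl2-type chemokines as attractants of monocytes through Ccr2, and Cxcl12 as a guidance and homing signal through Cxcr4. Some of the receptors mark cells of the blood that are rare in an undamaged retina.

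Values are log2 RMA signals, so a difference of 1 is a doubling; levels of different probe sets are not compared. Of the 53 probe sets 27 had a mean signal below the 25th percentile of the array (3.83) and 41 below its median (5.26). No detection call comes with the values, and for dim probe sets the background is not known, so their fold changes are uncertain. Probe sets with the suffix s or x may share probes with other transcripts, and this holds here for Ccl7, Ccl9, Ccl17, Ccl20, Ccl21a, Ccl21c, Ccr6, Cxcl15, Pf4, Xcr1 and 1 probe set each of Ccl27a, Ccr9 and Cxcr2. Array medians lay between 5.15 and 5.34. The connective tissue gene Dcn read 6.45 and 6.90 in normal 2 months replicates 2 and 3, and 6.51 in mutant 4 months replicate 3. In all other arrays Dcn read 3.77 to 5.87. The lens gene Grifin read 10.16 to 11.33 in 3 arrays (normal 2 months replicate 2, mutant 2 months replicate 2 and normal 4 months replicate 1) and 5.69 to 8.77 in the other 21. Of the rod markers listed, Gnb1 was the one measured (lower in mutant by a log2 difference of -0.21 ± 0.06, SE), so the tissue label could not be checked against rhodopsin or its partners. The number of arrays limits the precision, and 3 arrays against 3 cannot give an exact p below 0.10.

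Averaged over the 4 ages, mutant retinas had more signal for the chemokines Cxcl12, Ccl12, Cxcl13, Cx3cl1 and Cxcl10 and less for Pf4. Among these the rises ran from 1.14-fold for Cxcl10 to 1.59-fold for Cxcl12. The Cxcl12 rise was that of the NM_021704 probe set alone, and the other Cxcl12 probe set did not pass. In all 7 of the 53 probe sets passed (13.2%; limma with Benjamini-Hochberg adjustment over the array, adjusted p under 0.05), against 22.6% of all 1246 probe sets. Higher in mutant were 6, where the array had 13.8%, and lower was 1, where it had 8.83%. The share of members called was thus not above that of the array. The count was 11 when arrays were centred on their medians or quantile normalized again, and 11 without mutant 2 months replicate 3. The median difference was -0.03 over the members and -0.03 over all probe sets. In whole retina, more RNA per cell and more cells of a type cannot be told apart, here and below.

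How members fared differed with their brightness as it did on the array. Of the 27 members below the 25th percentile 1 passed (3.7%, against 7.37% of all such probe sets), of the 14 up to the median 3 passed (21.4% against 17.7%), and of the 12 brighter ones 3 passed (25% against 32.7%). The signal range over the 24 arrays had a median of 0.54 in members and 0.58 in all probe sets, and stayed under 0.5 in 22 members.

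**Figure D1:**
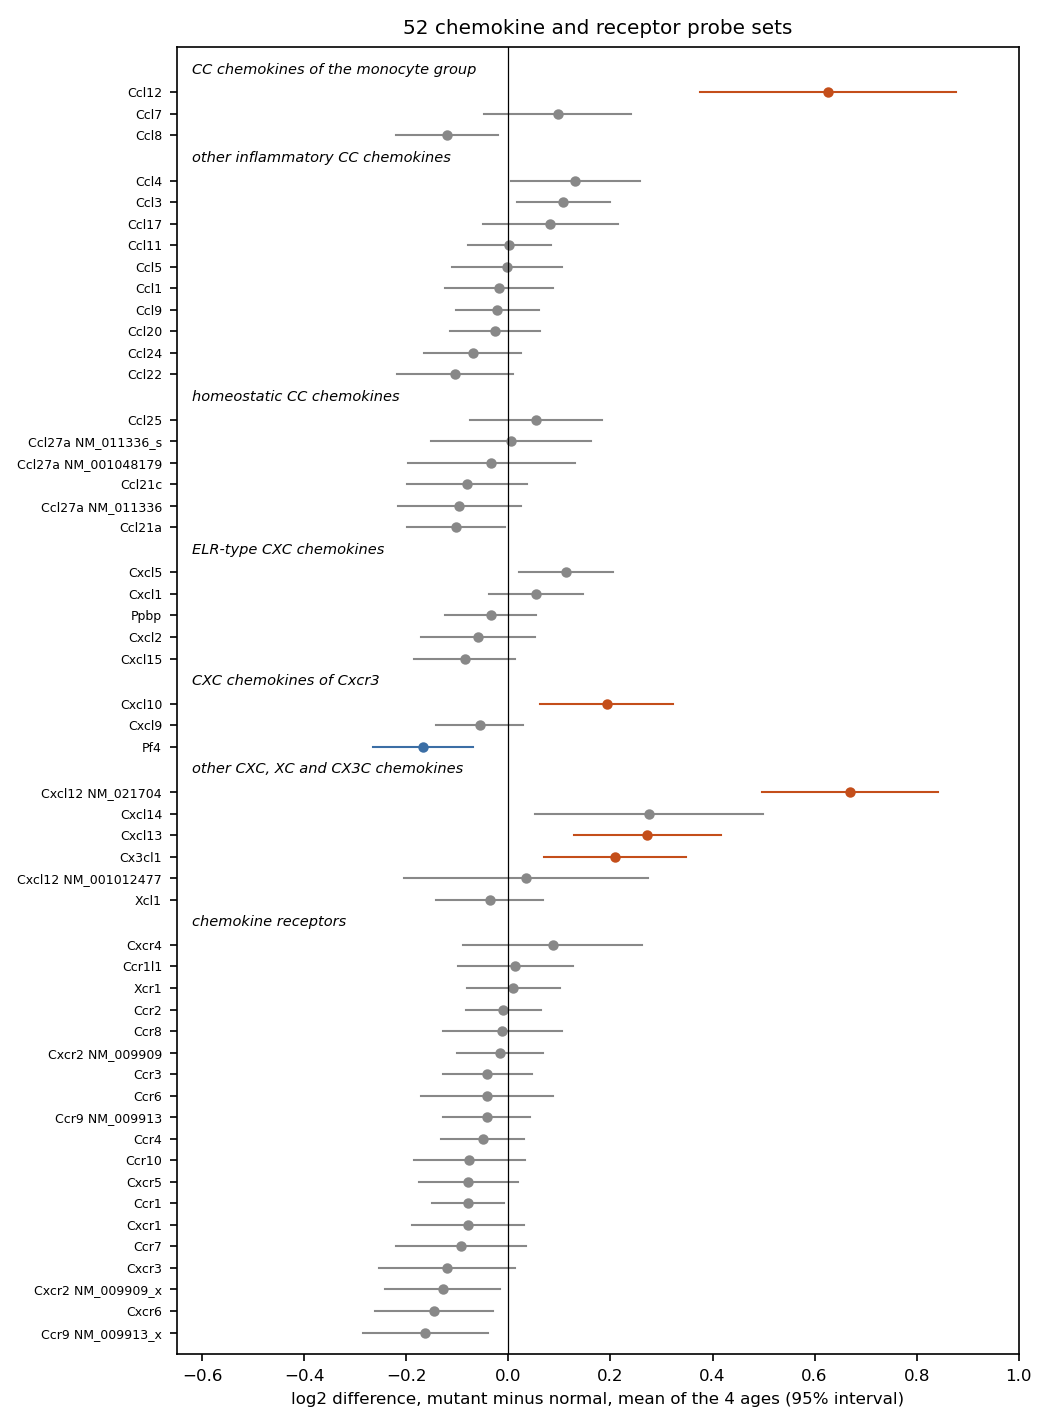
Log2 difference, mutant minus normal, averaged over the 4 ages, for 52 of the probe sets by class (points; lines are 95% intervals of limma's estimate). The 5 drawn that passed as higher are orange, Pf4, which passed as lower, is blue, and the 46 in grey did not pass; their intervals all lie between -0.29 and 0.50.

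Cxcl12, the ligand of Cxcr4 also known as stromal cell-derived factor 1, had the smallest p of the members. Its probe set designed on NM_021704 read 6.91, 6.61 and 7.14 in normal and 7.45, 7.17 and 7.54 in mutant retinas at 1 month. The values were 6.63, 6.76 and 7.04 against 7.18, 7.33 and 6.93 at 2 months. They were 6.9995, 6.60 and 7.05 against 7.74, 8.03 and 7.82 at 3 months. Mutant arrays lay above all normal arrays at 1, 3 and 4 months (6.72, 7.04 and 7.23 against 7.85, 7.66 and 8.06 at 4 months), and the groups overlapped at 2 months. The difference over the 4 ages was 0.67 ± 0.08 (SE, n = 24 arrays; 95% interval 0.50 to 0.84; limma adjusted p = 4.63e-06). It was 0.98 ± 0.16 at 3 months (1.97-fold, limma adjusted p = 0.00136) and 0.86 ± 0.16 at 4 months (1.82-fold, limma adjusted p = 0.00154). At 1 month it was 0.50 ± 0.16 (limma adjusted p = 0.211) and at 2 months 0.33 ± 0.16 (limma adjusted p = 0.361), neither of which passed.

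The other Cxcl12 probe set, named for the transcript NM_001012477, gave 0.03 ± 0.11 over the 4 ages (95% interval -0.20 to 0.27; limma adjusted p = 0.851). It ranged from 6.06 to 7.09 in normal and from 6.14 to 7.55 in mutant arrays, the highest being mutant 4 months replicate 1. Its range of 1.49 over the arrays was the largest of any member. Within each array the NM_021704 value minus the NM_001012477 value was 0.21 ± 0.42 (SD, n = 12) in normal and 0.85 ± 0.33 (SD, n = 12) in mutant retinas. That within-array difference was higher in mutant by 0.63 on average over the ages, and an exact permutation test of genotype within each age gave a 2-sided p of 0.0008375 (160000 arrangements). The test was chosen with the probe sets already known from earlier results of these data to differ, so its p is not independent support. The probe sets of this gene changed unequally on these arrays. That does not say which transcript changed, since the bases each probe set reads are not given.

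**Figure D2:**
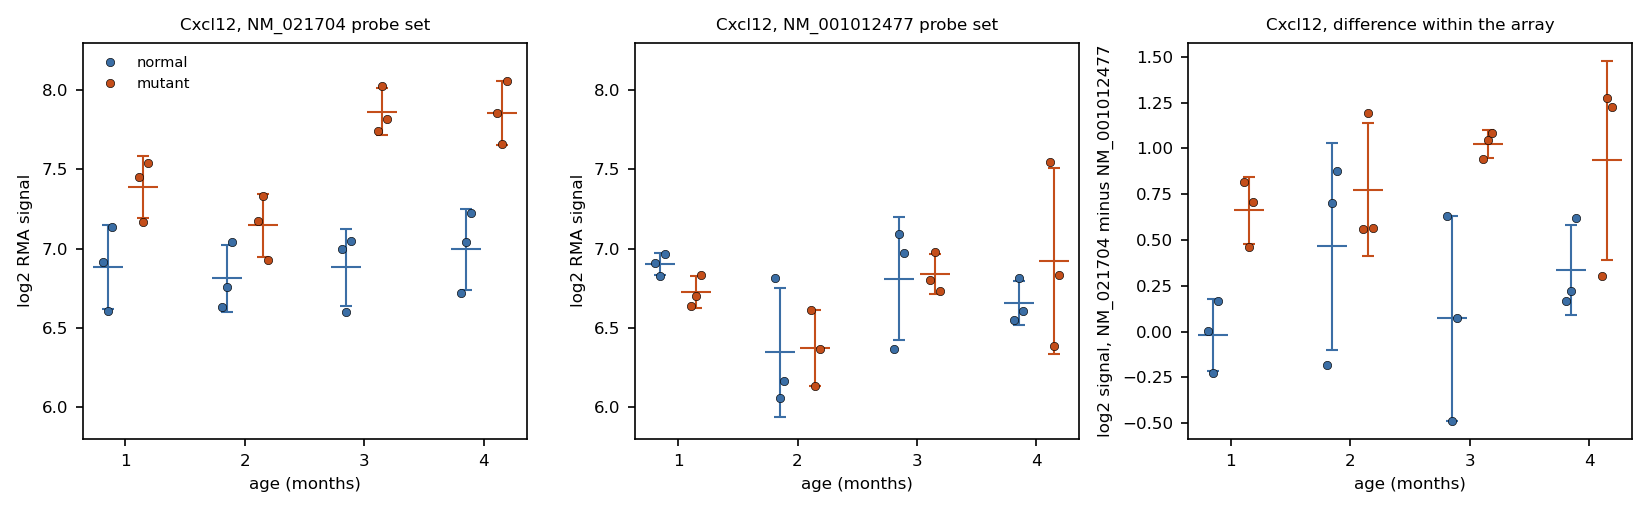
Log2 signal of the Cxcl12 probe sets on each array by age in months (left NM_021704, middle NM_001012477), and their difference within the array (right). Points are arrays, bars the mean and whiskers the SD of 3; on the right the mutant values run from 0.31 to 1.27 and the normal values from -0.49 to 0.88.

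Cxcr4, the receptor of Cxcl12, was read at 3.99 to 4.92 and did not pass (0.09 ± 0.08 over the ages; 95% interval -0.09 to 0.26; limma adjusted p = 0.481). Its largest difference was at 4 months, 0.31 ± 0.17 (limma adjusted p = 0.266), where normal arrays read 3.99, 4.29 and 4.23 and mutant arrays 4.64, 4.55 and 4.26. In normal retinas Cxcr4 had the smallest p of the members for age, -0.53 ± 0.17 from 1 to 4 months, and did not pass either (limma adjusted p = 0.290).

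Ccl12, a monocyte attractant of the mouse that binds Ccr2, was higher in mutant arrays at every age without overlap. Normal arrays read 4.00 to 4.35. Mutant arrays read 4.55, 4.61 and 4.48 at 1 month, 4.40, 5.33 and 4.54 at 2 months, 4.93, 4.14 and 5.20 at 3 months, and 5.42, 5.03 and 4.45 at 4 months. The spread among mutant arrays was wide, and mutant 3 months replicate 2 (4.14) lay only just above the normal arrays of that age (4.12 to 4.14). Over the ages the difference was 0.63 ± 0.12 (1.54-fold; limma adjusted p = 0.000667). At 4 months it was 0.82 ± 0.24 and passed (limma adjusted p = 0.0261). That call was lost, with limma adjusted p between 0.0755 and 0.157, on leaving out normal replicate 1 or 3 or mutant replicate 1 or 2 of that age, and in a fit to the 4-month arrays alone (limma adjusted p = 0.0695). At 1, 2 and 3 months Ccl12 did not pass in the fit to all arrays. It passed at 1 month in a fit to the 1-month arrays alone, and at 3 months without mutant replicate 2 of that age.

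The other measured monocyte attractants of this group, Ccl7 and Ccl8, did not pass (0.10 ± 0.07 and -0.12 ± 0.05). Ccl2 itself was not analysed here. On chromosome 11 the order of genes in RefSeq is Ccl2, Ccl7, Ccl11, Ccl12, Ccl8 and Ccl1, and of the 5 of these that were measured Ccl12 was the one that passed; the eosinophil attractant Ccl11 gave 0.00 ± 0.04 and Ccl1 -0.02 ± 0.05. The receptor Ccr2, which marks inflammatory monocytes, read 2.63 to 2.95 on all arrays, among the dimmest values of the array, and differed by -0.01 ± 0.04 (95% interval -0.08 to 0.06).

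Separation of all 3 mutant arrays above all 3 normal arrays at each of the 4 ages, as for Ccl12, was found for 2 of 53 members and for 1.93% of all probe sets.

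Ccl3, Ccl4 and Ccl5, chemokines of inflamed tissue that attract macrophages and T cells, did not pass. Ccl3 gave 0.11 ± 0.04 (limma adjusted p = 0.0844), Ccl4 0.13 ± 0.06 (limma adjusted p = 0.128) and Ccl5 -0.00 ± 0.05, with a 95% interval of -0.11 to 0.11. Ccl3 and Ccl4 passed when each array was centred on its median or quantile normalized again, so their calls turn on the scaling. Among receptors of inflammatory chemokines Ccr1 gave -0.08 ± 0.03 and Ccr3 -0.04 ± 0.04. For Ccr9, a receptor of gut-homing cells, the x-suffixed probe set gave -0.16 ± 0.06, which just failed (limma adjusted p = 0.0514). The other Ccr9 probe set did not pass, and its mutant mean was higher at 1 of the 4 ages.

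**Figure D3:**
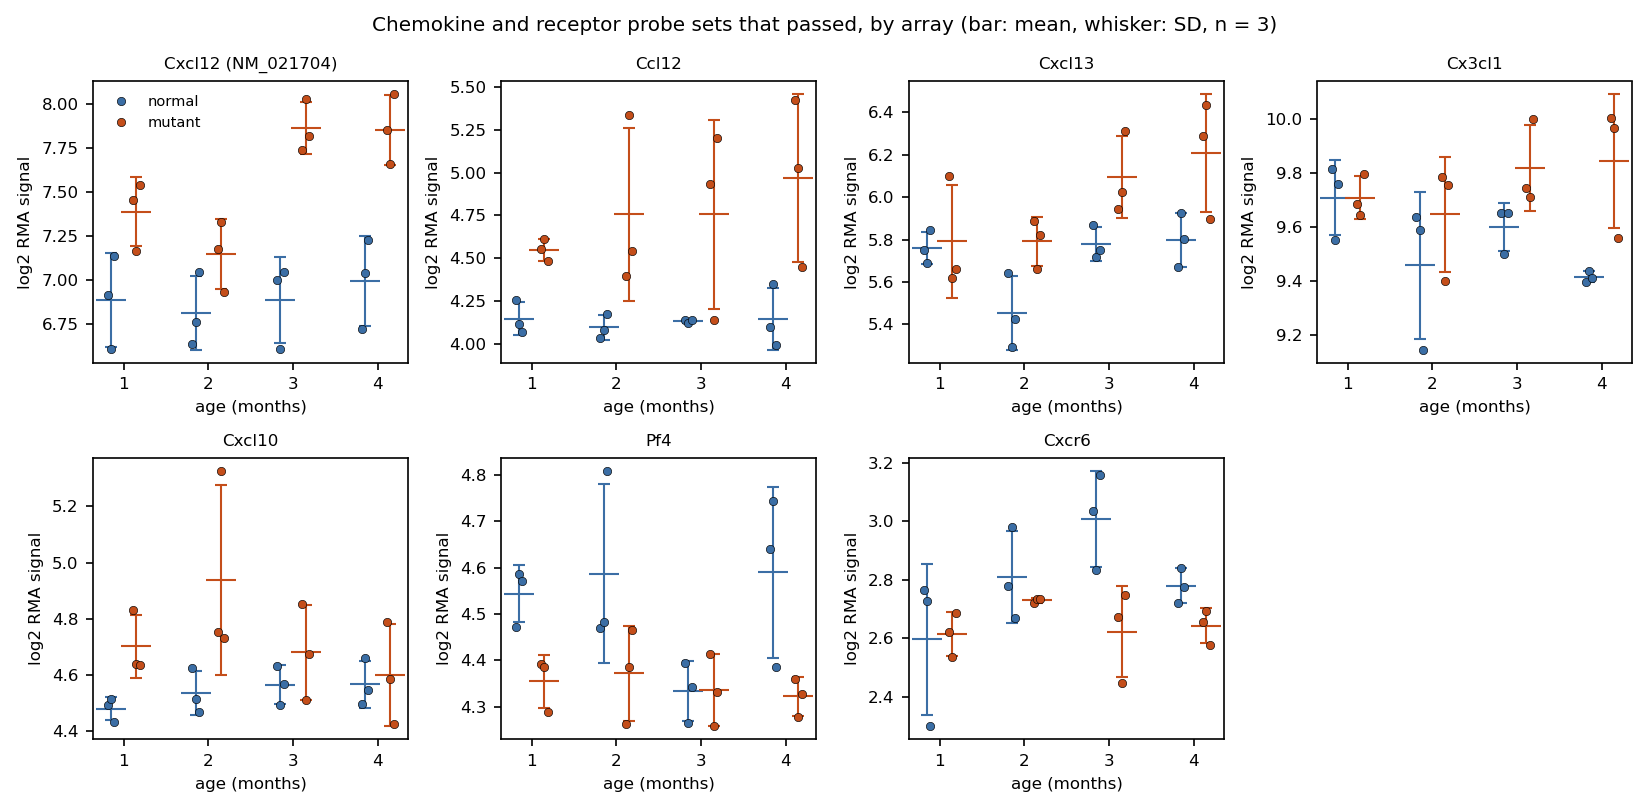
Log2 RMA signal on each array by age in months for 7 probe sets that passed at some age or over the 4 ages, normal in blue and mutant in orange (points: arrays; bars: mean; whiskers: SD, n = 3). Ccl12 separates the genotypes at every age, the Cxcl12 probe set drawn (NM_021704) at 1, 3 and 4 months, and Pf4 lies lower in mutant at 1, 2 and 4 months.

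Cxcl13, the B cell attractant that binds Cxcr5, read 5.75, 5.69 and 5.84 in normal and 6.10, 5.62 and 5.66 in mutant retinas at 1 month, with overlap. At 4 months it read 5.67, 5.92 and 5.804 against 6.29, 6.43 and 5.90. The groups were apart at 2 and 3 months and overlapped at 1 and 4 months. The difference over the ages was 0.27 ± 0.07 (1.21-fold; limma adjusted p = 0.00692), while at 4 months 0.41 ± 0.14 did not pass (limma adjusted p = 0.057). Cxcl13 did pass at 4 months with arrays centred on their medians, with dim probe sets left out, with the replicate block, and without mutant 1 month replicate 1, mutant 3 months replicate 3 or mutant 4 months replicate 3. Its receptor Cxcr5 gave -0.08 ± 0.05 and did not pass (limma adjusted p = 0.230).

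Cx3cl1, the membrane-bound chemokine fractalkine, read 9.82, 9.55 and 9.76 in normal and 9.68, 9.64 and 9.80 in mutant retinas at 1 month, with a difference of 0.00 ± 0.13. At 4 months normal arrays read 9.40, 9.44 and 9.41 and mutant arrays 10.004, 9.97 and 9.56, all above the normal ones. From 1 to 4 months in normal retinas Cx3cl1 gave -0.29 ± 0.13, which did not pass (limma adjusted p = 0.637). On these arrays the 4-month gap thus holds lower normal values as well as higher mutant ones. The 4-month difference of 0.43 ± 0.13 passed (1.35-fold; limma adjusted p = 0.0371), as did 0.21 ± 0.07 over the ages (limma adjusted p = 0.0276). Both calls are close to the threshold. The one over the ages was lost (limma adjusted p = 0.0506 to 0.0558) on leaving out any 1 of 8 arrays: normal 1 month replicate 2, normal 2 months replicate 3, normal 3 months replicate 2, mutant 1 month replicate 3, mutant 2 months replicate 1, mutant 3 months replicate 3, or mutant 4 months replicate 1 or 2. The 4-month call was lost (limma adjusted p = 0.0759 to 0.160) without any 1 of the 4-month arrays other than mutant replicate 3, and without the 3 arrays high in Grifin (limma adjusted p = 0.0756). It was lost as well in a fit to the 4-month arrays alone (limma adjusted p = 0.0777).

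Its receptor Cx3cr1, outside the group by the rule and a marker of microglia, ran from 6.74 to 7.30 in normal and from 7.56 to 8.63 in mutant arrays, with no overlap over all ages. The difference was 0.94 ± 0.10 (limma adjusted p = 7.91e-07). Of the 53 members none separated all 12 mutant from all 12 normal arrays, against 0.963% of all probe sets. Ackr4, an atypical receptor that takes up chemokines, gave -0.08 ± 0.07 and did not pass.

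Cxcl10, an attractant of activated T cells induced by interferons, read 4.43 to 4.66 in normal arrays. Mutant arrays read 4.83, 4.64 and 4.64 at 1 month, 4.75, 5.33 and 4.73 at 2 months, 4.85, 4.51 and 4.68 at 3 months, and 4.79, 4.59 and 4.42 at 4 months. They lay above the normal arrays at 1 and 2 months and overlapped them at 3 and 4 months. The difference over the ages was 0.19 ± 0.06 (limma adjusted p = 0.0309). The array with 5.33, mutant 2 months replicate 2, is one of the 3 with high Grifin, and it also held the highest Ccl12 value of its age. Without those 3 arrays Cxcl10 gave 0.13 and did not pass (limma adjusted p = 0.0938), while the other 6 members that passed over the ages still did. It was also lost (limma adjusted p = 0.0522 to 0.0599) on leaving out any 1 of 7 arrays: normal 1 month replicate 3, normal 2 months replicate 3, normal 3 months replicate 2, normal 4 months replicate 1, mutant 1 month replicate 1, mutant 3 months replicate 1 or mutant 4 months replicate 1. At 2 months 0.40 ± 0.13 did not pass (limma adjusted p = 0.0793), and it passed without mutant 2 months replicate 3 (0.50; limma adjusted p = 0.0442).

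Neither of the other measured chemokines of Cxcr3 passed as higher. Cxcl9, induced by interferon gamma, gave -0.06 ± 0.04, and Cxcr3 itself gave -0.12 ± 0.06 (limma adjusted p = 0.178). Pf4, platelet factor 4, fell by 0.17 over the ages (SE 0.05; limma adjusted p = 0.0133). It read 4.47, 4.59 and 4.57 in normal and 4.39, 4.38 and 4.29 in mutant retinas at 1 month. At 4 months it read 4.64, 4.74 and 4.39 against 4.36, 4.28 and 4.33. Mutant arrays were below the normal arrays at 1, 2 and 4 months, just barely so at 2 months (4.26 to 4.47 against 4.47 to 4.81), and overlapped them at 3 months. The platelet markers Ppbp, itself a chemokine, and Selp gave -0.04 ± 0.04 and -0.11 ± 0.05 and did not pass.

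The sequence before the start of Cxcl10, Ccl12 and Cxcl12 is shown, since a probe set of each passed as higher over the ages. Inflammatory chemokine promoters are known for sites of NF-kB, AP-1 and interferon-regulated factors. Bases are RefSeq GRCm38.p6, the 250 before the annotated start, 5′ to 3′ on the gene's strand: the minus strand at chr5:92348890-92349139 for Cxcl10, the plus strand at chr11:82101595-82101844 for Ccl12 and the plus strand at chr6:117168285-117168534 for Cxcl12. Capitals mark matches to a kB motif (GGG, any 3 bases, TTCC), an interferon response motif (GAAA, any 2 bases, GAAA) or an AP-1 motif (TGANTCA, which reads alike on both strands), searched on both strands.
Cxcl10: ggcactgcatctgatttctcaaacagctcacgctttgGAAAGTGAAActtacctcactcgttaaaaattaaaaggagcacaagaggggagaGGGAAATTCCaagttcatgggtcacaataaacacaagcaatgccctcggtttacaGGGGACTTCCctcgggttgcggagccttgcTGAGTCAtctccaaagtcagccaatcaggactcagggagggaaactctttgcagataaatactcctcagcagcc
Ccl12: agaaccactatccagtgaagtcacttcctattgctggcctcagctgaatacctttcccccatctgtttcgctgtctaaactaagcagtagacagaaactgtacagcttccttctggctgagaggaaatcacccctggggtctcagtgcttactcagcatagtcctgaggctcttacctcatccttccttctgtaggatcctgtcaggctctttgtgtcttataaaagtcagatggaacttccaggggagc
Cxcl12: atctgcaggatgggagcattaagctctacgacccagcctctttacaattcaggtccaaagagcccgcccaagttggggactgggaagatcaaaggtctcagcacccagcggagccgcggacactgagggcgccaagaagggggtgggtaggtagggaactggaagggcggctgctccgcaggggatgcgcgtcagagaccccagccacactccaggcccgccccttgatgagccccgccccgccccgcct

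Cxcl10 held kB matches 159 to 150 and 104 to 95 bases before the start, an interferon response match at 213 to 204 and an AP-1 match at 74 to 68. Neither Ccl12 nor Cxcl12 held any of these letters in the window, and neither did Cx3cl1, Cxcl13 or Pf4, whose windows are not printed. Promoters were found for 37 of the 48 genes, with 41 starts in all. A kB match stood in 8 of the 41 (19.5%) and in 4.65% of all 32851 mouse promoters of this length. An AP-1 match stood in 6 (14.6%, against 6.75%) and an interferon response match in 2 (4.88%, against 2.98%). TATAAA, searched on both strands, stood in 12 of the 41 (29.3%, against 12.4%), and in Ccl12 it lay 31 to 26 bases before the start. Besides Cxcl10, kB matches were in Ccl1, Ccl9, Ccl20, Ccr3, 1 start of Ccr6, Cxcl1 and Cxcl2, none of which passed. A match describes letters and shows no binding.

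The remaining classes held no probe set that passed over the ages. None of the 10 probe sets of other inflammatory CC chemokines passed; they include Ccl17, Ccl20, Ccl22 and Ccl24, and their median difference was -0.01. None of the 6 for homeostatic CC chemokines passed (median -0.06), among them the lymph node attractants Ccl21a and Ccl21c and the gut chemokine Ccl25. The 3 probe sets of Ccl27a, a skin chemokine, lay between -0.10 and 0.00. The 5 neutrophil attractants of the ELR type had a median of -0.04, with Cxcl5 at 0.11 ± 0.04 (limma adjusted p = 0.0704) and Cxcl1 at 0.05 ± 0.04. Their receptors Cxcr1 and Cxcr2 did not pass. Cxcl5 passed over the ages with arrays centred on their medians or quantile normalized again, and with an intensity trend. Its call was also gained without mutant 1 month replicate 2 or normal 3 months replicate 2. Cxcl14, a chemokine made by epithelia and some neurons, gave 0.28 ± 0.11 over the ages (limma adjusted p = 0.0704) and 0.63 ± 0.21 at 4 months (limma adjusted p = 0.0578), where mutant arrays read 8.27, 8.50 and 7.56 and normal arrays 7.47, 7.70 and 7.27. Cxcl14 passed over the ages with arrays centred on their medians, with the replicate block, and without normal 2 months replicate 1, mutant 3 months replicate 2 or mutant 4 months replicate 3. At 4 months it passed with that centring or block, with dim probe sets left out, with Grifin and Dcn as covariates, and without normal 1 month replicate 2, mutant 3 months replicate 3 or mutant 4 months replicate 3. In all, the 46 that did not pass had differences between -0.16 and 0.28, with 14 above 0 and 32 below.

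At single ages fewer members passed. At 1 month no member passed, where 0.321% of the array did. An unadjusted limma p under 0.05 was found for 3 (5.66%, array 9.23%), Cxcl12 and Ccl8 among them. At 2 months none passed against 3.45%, and 7 had an unadjusted limma p under 0.05 (13.2%, array 14.4%). At 3 months 3 of 53 passed (5.66%), against 12% of the array. Cxcl12 was among the 2 higher ones (array 6.66%), and Cxcr6 was lower (array 5.38%). At 4 months 4 passed (7.55%), against 12.9%, Cxcl12, Ccl12 and Cx3cl1 among them, all higher (array 9.47%), with none lower (array 3.45%). Under quantile normalization 80.0% of the members called at 4 months were higher, and at 3 months Cxcr6 was not called, so all those called were higher. The 3-month count was 1 without normal 3 months replicate 1. The 4-month count was 2 without normal replicate 1, mutant replicate 1 or mutant replicate 2 of that age.

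Separation of the raw arrays gave a like picture. At 1 month all mutant arrays lay above all normal arrays for 5 members (array 10.4%) and below them for 4 (array 11.7%), 9 in all (17.0%, array 22.1%). At 2 months 8 were above (array 9.07%) and 3 below (array 8.35%), 11 in all (20.8%, array 17.4%). At 3 months 5 were above (array 13.2%) and 9 below (array 19.4%), 14 in all (26.4%, array 32.6%). At 4 months 5 were above (array 17.1%) and 5 below (array 12.9%), 10 in all (18.9%, array 30%). None lay below at all 4 ages (array 0.401%), and the difference kept 1 sign over the ages in 16 members (30.2%, array 32.0%). These shares stood near or under those of the array at 1, 3 and 4 months. At 2 months the share in either direction was near that of the array too (20.8% against 17.4%), with more members above and fewer below than the array's shares.

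Cxcr6, the T and NK cell receptor of Cxcl16, passed as lower at 3 months only. It read 3.03, 2.83 and 3.16 in normal and 2.67, 2.45 and 2.75 in mutant arrays, a difference of -0.39 ± 0.11 (limma adjusted p = 0.0307). At 4 months the difference was -0.14 ± 0.11, and over the ages -0.15 ± 0.06 (limma adjusted p = 0.0648). The 3-month call was lost after centring the arrays (limma adjusted p = 0.0523) or quantile normalization (0.0699), with Grifin and Dcn as covariates (limma adjusted p = 0.0596), and without normal replicate 1 or 3 or mutant replicate 2 of that age (limma adjusted p = 0.0872, 0.0924 and 0.141). It was lost too in a fit to the 3-month arrays alone (limma adjusted p = 0.0960), and with dim probe sets left out Cxcr6 was not tested. The probe set is among the dimmest of the array.

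No member passed the moderated F test for a genotype difference that changes with age, where 0.321% of the array did. Only 1 member had an unadjusted limma p under 0.05 (1.89%, array 14.4%), Cxcl12 (limma adjusted p = 0.323). No member passed for the 4-month difference minus the 1-month difference (array 0.241%). Here 1 member had an unadjusted limma p under 0.05 (1.89%, array 11.4%), Cx3cl1 at 0.43 ± 0.19 (limma adjusted p = 0.391). From 1 to 4 months in normal retinas none passed (array 0.0%), and 3 members had an unadjusted limma p under 0.05 (5.66%, array 7.38%). In mutant retinas over the same span none passed (array 2.65%), and 4 members had an unadjusted limma p under 0.05 (7.55%, array 15.1%). The smallest p was that of Cxcl13 at 0.42 ± 0.14 (limma adjusted p = 0.119). Without mutant 4 months replicate 3 Cxcl13 passed (0.57; limma adjusted p = 0.0280). A growth of the differences with age was therefore not detectable for these genes. The limma point estimates for Ccl12, Cxcl13 and Cx3cl1 were higher at 4 than at 1 month, and that for Cxcl10 was lower. Over the members the median of the 4-month minus the 1-month difference was -0.01 (array 0.03), with 25 of 53 above 0.

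**Figure D4:**
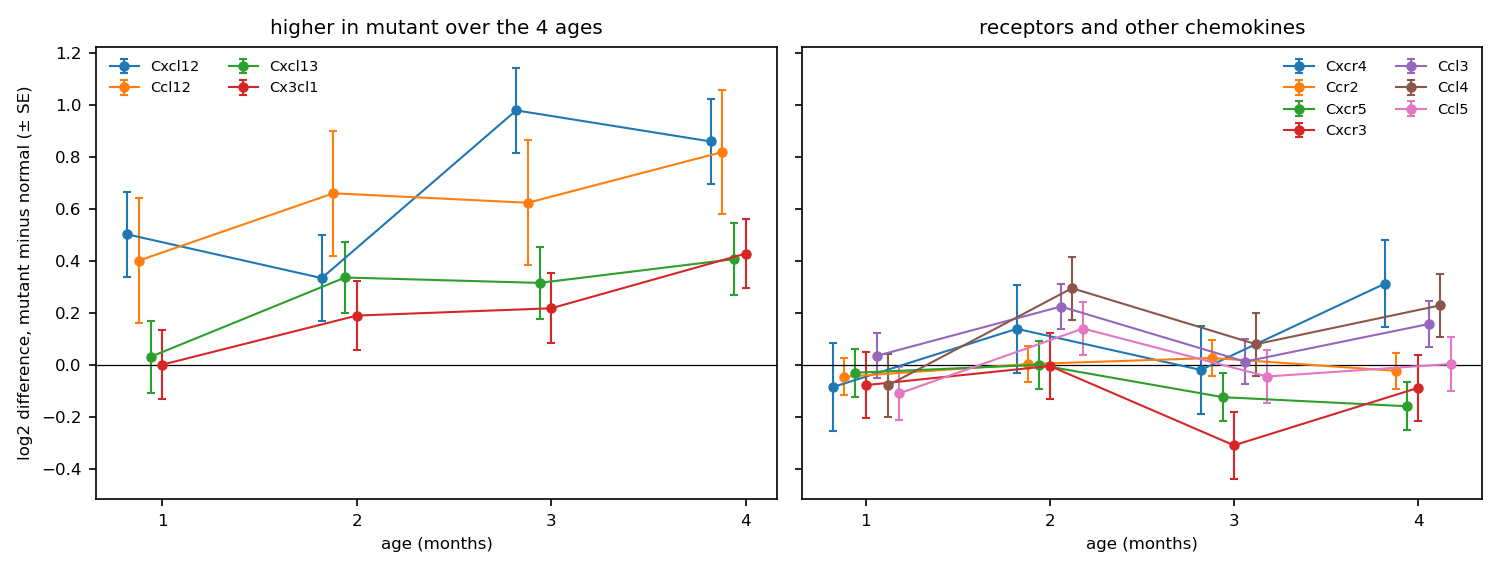
Log2 difference, mutant minus normal, at each age in months (points; whiskers: SE of limma's estimate). Left, 4 members higher in mutant over the ages (Cxcl12 is the NM_021704 probe set); right, receptors and other chemokines, none of which passed at any age and whose points lie between -0.31 and 0.31.

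Genes listed here as markers of glia moved with genotype beside these members. Of the microglia and macrophage list 6 of 14 genes were measured; Csf1r, Cx3cr1, Adgre1 and Siglech rose, and Mrc1 and Siglec1 did not pass. Their log2 summed signal was 8.19 to 8.54 in normal and 8.79 to 9.72 in mutant arrays, without overlap. Of the Müller glia and astrocyte list 4 of 9 were measured (Cd44, Fgf2, Icam1 and Vcam1), and all passed as higher. The sums overlapped, at 7.54 to 9.01 in normal and 8.19 to 9.64 in mutant arrays. The highest sum of each genotype was that of 2 months replicate 2, an array high in Grifin. Icam1 and Vcam1 also stand in the adhesion list below. The part of glia in the chemokine differences was not tested.

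Markers of blood cells gave other values. Of the monocyte and neutrophil list 4 of 8 genes were measured, and Csf3r passed as higher (0.26 ± 0.06) while the others, Ccr2 and Cxcr2 among them, did not pass; the summed signals were 5.90 to 6.19 in normal and 5.93 to 6.29 in mutant. None of the 4 measured of 13 T, B and NK cell markers passed (5.85 to 6.03 against 5.82 to 6.22). Of the platelet markers 3 of 6 were measured (5.62 to 5.84 against 5.47 to 5.74), and Pf4 among them fell. Pf4 and Ppbp in this list, and Ccr2 and Cxcr2 in the monocyte and neutrophil list, are members of the group. The sums of these lists are thus not independent of the members. Of the endothelial and pericyte list 5 of 10 were measured (7.46 to 7.78 against 7.48 to 8.07), and Mcam and Cd34 passed as higher. Of the connective tissue and pigment epithelium list 4 of 9 were measured, none passed, and the sums were 6.78 to 8.72 and 7.02 to 8.04. No signal on this log2 scale is listed at 0, so absence cannot be read from it.

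Partners of chemokine action were taken from lists of known genes. The array's shares as background were 13.8% higher, 8.83% lower and 22.6% in either direction. Of the 23 enzymes that build and edit heparan sulfate, on which chemokines are held, 7 were higher and 2 lower over the ages. Sulf1, which removes 6-O-sulfates, rose by 0.72 ± 0.05, Hs6st2, which adds them, by 0.34 ± 0.06, and Hs3st5 by 0.25 ± 0.04, while the chain polymerase Ext1 gave -0.61 ± 0.12. Neither of the tyrosine sulfotransferases passed (Tpst1 0.07 ± 0.05, Tpst2 -0.08 ± 0.06). Of 17 probe sets for cytokines known to induce chemokines 5 were higher: both of Csf1 (0.34 ± 0.05 and 0.36 ± 0.05), Il33 (0.45 ± 0.10), Il18 (0.17 ± 0.05) and Il1a (0.15 ± 0.05). Ifng, Il1b, Il6 and Ifnb1 did not pass (-0.06, -0.03, -0.01 and -0.02), with Ifng and Il6 among the dim probe sets below the 25th percentile. Of 12 leukocyte adhesion genes 4 were higher, Glycam1 (2.21 ± 0.27), Icam1 (1.00 ± 0.12), Vcam1 (0.81 ± 0.08) and Cd34 (0.32 ± 0.07), and Itgae was lower (-0.55 ± 0.16).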

How the data were processed

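Total RNA was extracted with Trizol and labelled as biotinylated cRNA, per the labels' protocols. The authors used RMA, per the submitters' processing notes, and their deposited table holds log2 signals; its steps and version are not given in the sources used here. No scanner files were used here, so the background correction could not be varied. Probe sets were named by matching their RefSeq accessions (963 of 1246 named).

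One linear model with a mean per genotype and age was fitted to all 24 arrays and all 1246 probe sets (R 4.3.3, limma 3.58.1, eBayes defaults, 16 residual degrees of freedom), tested 2-sided with Benjamini-Hochberg adjustment within each contrast at 0.05, and checked on simulated data. Errors of differences are limma's SE. The within-array Cxcl12 difference was tested by exact permutation (Python 3.11.15, numpy 2.4.6).

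Named were probe sets that passed in any contrast, the 3 with the smallest p per contrast, other probe sets of those genes, their partners, and up to 4 context genes a list; Ccl11, Ccl1, Ccr1, Ccr3, Ccr9, Cxcl5 and members of the classes were added as neighbours or to describe counts. Members, lists, tests and alternatives were chosen with earlier results of these data known. Same-numbered normal and mutant arrays deviated together (r above 0.1) in 3 of 12 pairs, which were all those of 2 months (r = 0.325, 0.662 and 0.245; both arrays of replicate 2 there were high in Grifin). At the other ages r ran from -0.030 to 0.083. The numbers were therefore taken as pairing at 2 months only, where the block left the count of members at 0.
Some probe sets that enter the counts are not reported here by name.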

Additional observations from a re-analysis of the deposited data

Results flagged for a closer look

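Ccr3, a receptor of eosinophils, was higher in all 3 mutant than in all 3 normal arrays at 2 months (0.11) and lower in all 3 at 3 months (-0.16). The difference between these ages was not tested on its own; the moderated F test over all ages did not pass (limma adjusted p = 0.529), and the probe set read 2.23 to 2.76, among the dimmest.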

How the results depend on the processing

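Over the 4 ages, the count of 7 members rose to 11 with each array centred on its median and to 11 with quantile normalization again, and ran from 5 to 11 on leaving out 1 array (11 without mutant 2 months replicate 3). It was 6 without dim probe sets, 10 with an intensity trend, 8 with the Grifin and Dcn covariates and 6 without the 3 arrays high in Grifin. With age and replicate number as a block, counts were 0, 0, 3 and 6 at 1 to 4 months, 9 over the ages and 0 in the other contrasts. The block gained Cxcl13 and Cxcl14 at 4 months and Ccr9 and Cxcl14 over the ages, and lost no call. Same-numbered arrays were taken as pairs at 2 months only, so the gains at 4 months cannot be credited to pairing. Fits to the arrays of the compared groups alone gave 2, 1 and 2 members at 1, 3 and 4 months. Ccl12 was among those gained at 1 month, Cxcr6 was lost at 3 months, and Ccl12 and Cx3cl1 were lost at 4 months. At 3 months the count was 1 without dim probe sets and 5 with an intensity trend. Leaving out 1 array gave 0 to 1 at 2 months, 1 to 4 at 3 months, 2 to 6 at 4 months and 0 to 1 for age in mutant retinas. The causes were not tested. Cxcl12, Ccl12, Cxcl13 and Pf4 passed over the ages under every alternative run. No named difference that passed turned its sign. The within-array Cxcl12 difference kept a permutation p of 0.0002375 to 0.0026375 on leaving out 1 array and of 0.00475 without the 3 arrays. An exact sign-flip test over same-numbered arrays gave a p of 0.00146, though only those of 2 months were taken as pairs. Scaling moved the share of higher calls on the whole array over the ages from 61.0% to 70.3% (centred) or 50.6% (quantile), and among members from 85.7% to 90.9% or 81.8%. At 3 months the members' share went from 66.7% to all of them under both, and at 4 months from all of them to 80.0% under quantile normalization, where the array's went from 73.3% to 53.5%.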
